A study of Homo sapiens with 4 samples.

Results

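The anaphase-promoting complex (APC/C), with its activators, its ubiquitin-conjugating enzymes and its inhibitor, was examined through 10 genes of 58735 in the table, chosen by gene name: CDC20, FZR1, UBE2C, UBE2S and FBXO5 as regulators, and CDC27, CDC16, CDC23, ANAPC1 and ANAPC4 as core subunits. All 10 were listed once and all 10 reached the level required for testing. Messenger RNA had been sequenced from Myla, a cell line of mycosis fungoides, a skin lymphoma of T cells. Cells labelled wild type that had taken up a lentivirus with a scrambled hairpin (shControl, 2 libraries) were set against cells labelled FOXM1 knockdown, which had taken up a lentivirus with a hairpin against FOXM1 (shFOXM1, 2 libraries). Both groups come from 1 cell line kept in the same medium with 10% serum, were given fresh medium 24 h after the virus and were harvested 72 h later. The labels do not say if 1 hairpin or several were used, or if cultures were transduced separately. The control columns are numbered within 1 name (sh0), whereas the knockdown columns are named sh1 and sh2, so these may hold 2 different hairpins. The p-values therefore cover the spread among the 4 libraries alone. That spread may be technical, and between the knockdown libraries it may also be a difference between hairpins.

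The APC/C is a large ubiquitin ligase that marks mitotic proteins for the proteasome. CDC20 activates it at the metaphase to anaphase transition and CDH1, the product of FZR1, keeps it active from mitotic exit through G1. UBE2C starts ubiquitin chains on its substrates, UBE2S lengthens them, and EMI1, the product of FBXO5, blocks the complex during S phase and G2. FOXM1 is a forkhead transcription factor that drives genes of G2 and mitosis in dividing cells.

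The targeted gene was lower in the knockdown libraries. FOXM1 had 26.5 FPKM (fragments scaled by gene length and a factor per library) in shControl 1 and 27.6 in shControl 2. In contrast, shFOXM1 1 had 9.27 and shFOXM1 2 had 5.59 FPKM. The whole reads behind the values numbered between 14147084 and 15017728 per library, and the members rested on 359 (FBXO5) to 3153 (UBE2S) reads each. Of 10 T cell markers, CD2, CD3D, CD3G and TRAC were at 19.2 FPKM or more in every library, CD8A was at 1.30 and 1.23 FPKM in the controls and 2.27 and 1.99 FPKM after knockdown, and CD3E, CD4, CD5, CD7 and LCK were at 0.138 FPKM or less. The groups stood apart for CD8A, higher after knockdown (limma, unadjusted p = 0.0309), and for CD3G, lower (unadjusted p = 0.125). The summed level of these 10 markers ran from 221 to 258 FPKM over the libraries. Of 24 markers of B cells, monocytes and macrophages, fibroblasts and endothelium, or epithelium, 6 reached the level tested. They were CD79A, CSF1R, COL1A1, KRT10, TP63 and CDH1, here the E-cadherin gene of chromosome 16, not the FZR1 product of that name. The groups stood apart for 1 of the 6, COL1A1, which was higher after knockdown. The summed level of the 24 markers ran from 35.9 to 47.9 FPKM over the libraries, highest in shFOXM1 2. Of the 24, 7 (MS4A1, FCGR3A, CD163, KRT14, EPCAM, CDH5 and LUM) were listed at 0 in all 4 libraries. The part of such cells in the results was not tested.

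Among the regulators, CDC20, UBE2C, UBE2S and FBXO5 were lower in both shFOXM1 libraries than in both shControl libraries, at 50.8 to 74.8% of the control mean, while FZR1 was at 110% with overlapping groups. Of the core subunits, ANAPC1 lay below, CDC16 above, and CDC27, CDC23 and ANAPC4 overlapped. Over all 12033 genes tested, 25.9% lay entirely below the controls and 27.3% entirely above. Beside that background, 1 subunit of 5 on either side is near it and 4 regulators of 5 below is above it. The split into regulators and core subunits was proposed with results of these data known, so this comparison is a description only. None of the 10 members passed the test over all genes (limma on log2(FPKM + 1), Benjamini-Hochberg adjusted p under 0.05), which called 0% of the genes tested. Before adjustment, 4 members (all regulators) had a limma p under 0.05 and a lower level and 1 (CDC16) a higher one, against 8.99 and 8.82% of all genes. By sign alone 6 of the 10 members were lower, against 50.1% of all genes. Leaving out single libraries moved these calls, with the lone library of a group taken to vary as the other group did. Without shFOXM1 1 limma called 6 members lower and 2 higher, in a fit that called 14.5% of all genes lower and 11.3% higher. Without shFOXM1 2 it called 2 members lower (UBE2C and FBXO5), against 2.95% of all genes lower and 2.34% higher. Without shControl 1, or without shControl 2, it called 0 members and 0% of all genes, and FBXO5 alone of the members had an unadjusted p under 0.05, against 2.51 and 2.63% of all genes with a lower level. With replicate number as a block the unadjusted counts were 4 lower and 0 higher, CDC16 no longer among them. Voom on the whole reads recovered from the table, with or without library weights, also called 0 members and put 4 lower and 1 higher at an unadjusted p under 0.05. The shares of all genes at that level in the block and voom fits are not given here, so these counts lack a background. In bulk RNA, fewer cells in a cycle phase and less RNA per cell cannot be told apart, and the phases were not measured here.

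**Figure D1:**
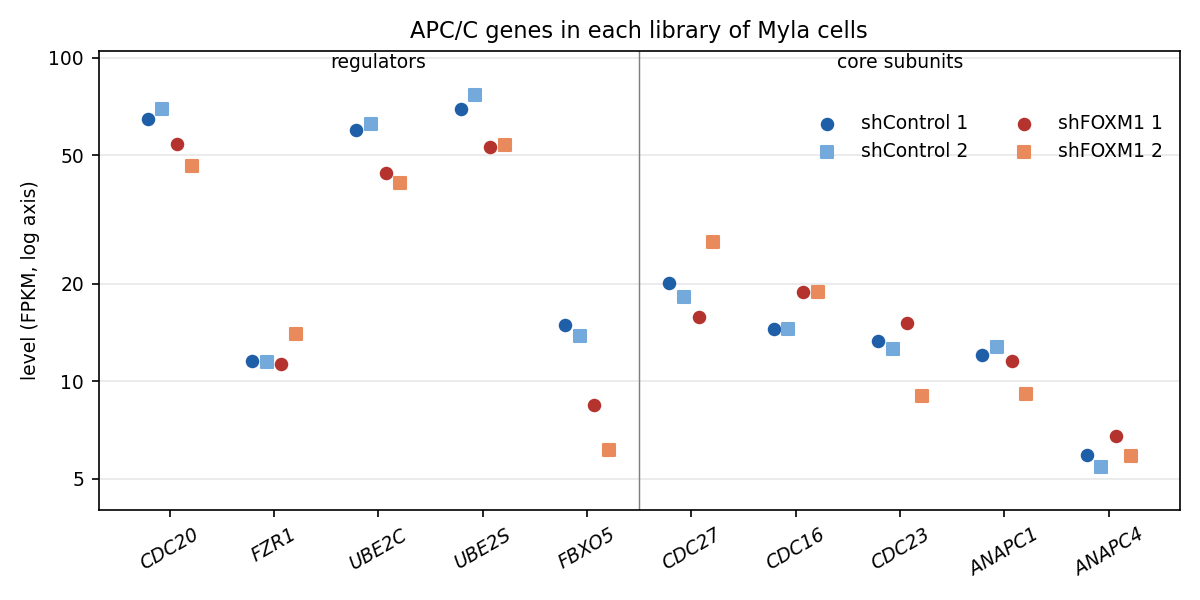
Level of each gene in each library (FPKM, log axis), with the 5 regulators left and the 5 core subunits right of the line and 1 point per library. CDC20, UBE2C, UBE2S and FBXO5 have both shFOXM1 points below both shControl points, while FZR1, CDC27, CDC23 and ANAPC4 overlap.

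The coactivators differed in level and in direction. CDC20, found at 43358955 to 43363203 of chromosome 1 (plus strand), was at 64.8 and 69.6 FPKM in the control libraries and, after knockdown, at 54.2 and 46.3 FPKM in shFOXM1 1 and 2. Both knockdown libraries were low, with shFOXM1 2 the lower. The group means were 67.2 ± 3.38 and 50.3 ± 5.58 FPKM (SD, n = 2 each), and the log2 fold change was -0.42 (SE 0.12, 95% interval -0.74 to -0.09; limma, adjusted p = 0.225). Without shFOXM1 1 it was -0.53 (limma, adjusted p = 0.0184) and without shFOXM1 2 it was -0.30 (limma, adjusted p = 0.0907). FZR1, found at 3506273 to 3538330 of chromosome 19 (plus strand), was at 11.6 and 11.5 FPKM in the controls and 11.3 and 14.0 FPKM after knockdown. The first knockdown library was level with the controls and the second above them. Its log2 fold change was 0.12 (SE 0.14, interval -0.25 to 0.48; limma, adjusted p = 0.689), which excludes neither a small rise nor a small drop, and it was -0.02 without shFOXM1 2 and 0.26 without shFOXM1 1. The ratio of CDC20 to FZR1 was 5.61 and 6.04 in the controls and 4.78 and 3.31 after knockdown. In this ratio the groups did not overlap.

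The upstream sequences of the coactivators are shown because both hold the letters of the cell cycle genes homology region (CHR), an element bound by the MuvB complexes with which FOXM1 acts. They come from RefSeq (GRCh38.p14) and cover the bases before the RefSeq start that lie outside every GENCODE exon. They are read 5′ to 3′ on the strand of the gene. Distances are counted from the RefSeq start. For CDC20 and FZR1 that start lies inside the gene bounds given above, so the printed stretch ends short of it. Capitals mark any of 3 motifs on either strand. The CHR was searched as TTTGAA. The CCAAT box was searched by the letters of its name. The site of E2F factors, regulators of S phase genes, was searched as TTTCCCGC. The CDC20 stretch is chr1:43358731-43358954 on the plus strand and that of FZR1, at the first of its 2 starts, is chr19:3506061-3506272 on the plus strand.
CDC20: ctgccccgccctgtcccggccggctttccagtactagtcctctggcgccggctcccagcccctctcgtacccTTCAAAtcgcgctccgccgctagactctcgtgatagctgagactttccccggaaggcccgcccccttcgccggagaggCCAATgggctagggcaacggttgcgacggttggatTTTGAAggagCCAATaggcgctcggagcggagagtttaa
FZR1: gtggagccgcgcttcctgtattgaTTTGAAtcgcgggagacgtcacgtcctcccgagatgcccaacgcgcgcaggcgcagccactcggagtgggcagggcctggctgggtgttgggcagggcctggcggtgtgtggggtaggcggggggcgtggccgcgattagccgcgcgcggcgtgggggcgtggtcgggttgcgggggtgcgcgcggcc
In CDC20 a CHR lay 65 to 60 bases before the start with a CCAAT box right after it, 55 to 51 bases before the start, and a second CHR and CCAAT box lay farther out. The single CHR of FZR1 lay 226 to 221 bases before the start, and no CCAAT box was in that window. Of 35114 RefSeq promoter windows of 250 bases, 13.3% held a CHR, 32.0% a CCAAT box, 4.69% both and 1.39% an E2F site. The forkhead letters TAAACA, found in 11.0% of windows, were in none of the 11 windows of the 9 members with an entry. These matches are descriptions of letters, not of binding. UBE2C had no entry.

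The ubiquitin-conjugating enzymes of the complex were lower by similar amounts. UBE2C (45812576 to 45816957 of chromosome 20, plus strand), which places the first ubiquitins, was at 59.7 and 62.5 FPKM in the controls and 44.0 and 41.0 FPKM after knockdown. UBE2S (55399745 to 55407777 of chromosome 19, minus strand), which extends chains through lysine residues of ubiquitin, was at 69.2 and 76.7 FPKM in the controls and 53.1 and 53.8 FPKM after knockdown. For both genes the groups stood apart and the knockdown libraries lay close together. The log2 fold change was -0.51 for UBE2C (SE 0.10, interval -0.79 to -0.24; limma, adjusted p = 0.183) and -0.44 for UBE2S (SE 0.11, interval -0.72 to -0.16; limma, adjusted p = 0.191). Without shFOXM1 1 the values were -0.56 and -0.43 (limma, adjusted p = 0.0156 and 0.034), and without shFOXM1 2 they were -0.46 and -0.45 (limma, adjusted p = 0.0479 and 0.0636). Their ratio to each other, UBE2C over UBE2S, was 0.862 and 0.815 in the controls and 0.829 and 0.761 after knockdown, with overlapping groups. Processed pseudogenes resemble both, so that reads may be shared. UBE2SP1 held 26 to 45 reads per library and the pseudogenes of UBE2C at most 3. UBE2S also overlaps RPL28 on the other strand, with 0 exonic bases in common.

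Of all 10 members, FBXO5, the inhibitor, had the log2 fold change farthest from 0. It sits at 152970519 to 152983579 of chromosome 6 (minus strand) and was at 14.9 and 13.8 FPKM in the control libraries and, after knockdown, at 8.46 and 6.15 FPKM in shFOXM1 1 and 2. The knockdown libraries were at 58.9 and 42.8% of the control mean. The lower one, shFOXM1 2, also had less FOXM1, but a relation to the FOXM1 level was not tested with these 2 libraries. The log2 fold change was -0.90 (SE 0.17, interval -1.35 to -0.46; limma, adjusted p = 0.183), and 1.07% of all genes tested had a log2 fold change as low or lower. It was -1.10 without shFOXM1 1 (limma, adjusted p = 0.0122) and -0.70 without shFOXM1 2 (limma, adjusted p = 0.0442), fits in which only the controls give a spread. Against FZR1, whose product EMI1 restrains, FBXO5 stood at 1.29 and 1.20 times in the controls and 0.747 and 0.439 times after knockdown. The level of FBXO5 was thus above that of FZR1 in both control libraries and below it in both knockdown libraries. Each level is divided by all annotated exonic bases of the gene (3833 for FBXO5, 5802 for FZR1). Which gene is the higher therefore rests partly on annotation, while the change of the ratio between groups does not. An antisense transcript, AL080276.2, shares 157 exonic bases with FBXO5 and was at 0.131 FPKM or less.

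The upstream sequences of FBXO5 and UBE2S are shown with the same marks, as 2 of the lower genes with unlike motif content. FBXO5 has 2 RefSeq starts, and the stretch before the inner one is chr6:152983042-152983233 on the minus strand. That of UBE2S is chr19:55407789-55408038 on the minus strand.
FBXO5: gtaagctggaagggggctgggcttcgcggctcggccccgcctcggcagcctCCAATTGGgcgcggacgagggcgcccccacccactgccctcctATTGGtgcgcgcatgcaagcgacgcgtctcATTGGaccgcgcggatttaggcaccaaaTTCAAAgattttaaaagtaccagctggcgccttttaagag
UBE2S: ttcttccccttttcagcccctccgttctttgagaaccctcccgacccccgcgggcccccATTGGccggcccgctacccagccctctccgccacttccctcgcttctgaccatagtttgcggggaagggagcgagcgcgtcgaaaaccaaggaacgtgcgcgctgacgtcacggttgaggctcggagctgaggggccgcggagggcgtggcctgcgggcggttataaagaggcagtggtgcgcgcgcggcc
FBXO5 held a CHR on the opposite strand 40 to 35 bases before its inner start and 4 matches to the CCAAT box, of which 2 overlap as one run. The window before its outer start held none of the motifs. UBE2S held 1 CCAAT box and 0 CHR matches. Among the 9 members with an entry, CDC20 and FBXO5 were therefore those with a CHR and a CCAAT box in 1 window, while UBE2S was lower without a CHR there and FZR1 held a CHR with overlapping groups.

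The core subunits did not share a direction. CDC16, a scaffold subunit of tetratricopeptide repeats (114234887 to 114272723 of chromosome 13, plus strand), was at 14.5 FPKM in each control library and at 18.9 FPKM in each knockdown library, the tightest replicates of any member. Its log2 fold change was 0.36 (SE 0.10, interval 0.09 to 0.63; limma, adjusted p = 0.217). It was also 0.36 without shFOXM1 1 (limma, adjusted p = 0.0398) and without shFOXM1 2 (limma, adjusted p = 0.0755). ANAPC1, the largest scaffold subunit (111611639 to 111884690 of chromosome 2, minus strand), was at 12.1 and 12.7 FPKM in the controls and 11.6 and 9.12 FPKM after knockdown. Its groups stood apart by little in the first knockdown library and by more in the second, and the log2 fold change was -0.25 (SE 0.15, interval -0.63 to 0.14; limma, adjusted p = 0.428). Without shFOXM1 1 it was -0.41 (limma, adjusted p = 0.0389) and without shFOXM1 2 it was -0.09 (limma, adjusted p = 0.528).

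For the other 3 core members the groups overlapped. CDC27, a subunit that receives the tails of the coactivators (47117703 to 47189422 of chromosome 17, minus strand), was at 20.1 and 18.2 FPKM in the controls and 15.8 and 26.9 FPKM after knockdown. CDC23, another repeat subunit (138187648 to 138213343 of chromosome 5, minus strand), was at 13.4 and 12.6 FPKM in the controls and 15.1 and 9.04 FPKM after knockdown. For both genes the knockdown libraries lay on either side of the controls, CDC27 being high and CDC23 low in shFOXM1 2. ANAPC4, a scaffold subunit (25377213 to 25418498 of chromosome 4, plus strand), was the lowest member, at 5.91 and 5.44 FPKM in the controls and 6.81 and 5.88 FPKM after knockdown. The log2 fold changes were 0.10 for CDC27 (interval -0.57 to 0.78), -0.14 for CDC23 (interval -0.77 to 0.50) and 0.14 for ANAPC4 (interval -0.20 to 0.48), with limma adjusted p of 0.860, 0.800 and 0.619. Without shFOXM1 2 the sign turned for CDC27 (-0.26) and CDC23 (0.21), and without shFOXM1 1 they stood at 0.47 and -0.48 (limma, adjusted p = 0.0333 and 0.028). The intervals of these subunits hold changes as large as that of CDC20 in at least 1 direction, so the data do not show that the subunits were constant. Exons of CDC23 and of KIF20A, a mitotic kinesin on the other strand, share 68 bases, and the strand setting of the counting is not given in the sources used here. KIF20A was at 16.9 and 17.1 FPKM in the controls and 10.9 and 7.74 FPKM after knockdown, and its part in the values of CDC23 was not tested. FZR1 likewise shares 70 exonic bases with MFSD12 on the other strand, and FOXM1 shares 781 with ITFG2. MFSD12 was at 9.37 to 11.2 FPKM and ITFG2 at 2.23 to 3.15 FPKM over the libraries. The part of MFSD12 and ITFG2 in the values of FZR1 and FOXM1 was not tested either.

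The promoter of CDC16 is shown as that of the subunit that was higher. Its stretch is chr13:114234647-114234886 on the plus strand.
CDC16: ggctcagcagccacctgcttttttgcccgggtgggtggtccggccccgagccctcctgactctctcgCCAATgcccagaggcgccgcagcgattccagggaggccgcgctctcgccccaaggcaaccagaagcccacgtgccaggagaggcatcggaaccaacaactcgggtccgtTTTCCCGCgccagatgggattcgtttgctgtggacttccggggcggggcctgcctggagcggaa
It held a CCAAT box and an E2F site but no CHR, and none of the 5 core members had a CHR in its window. CDC23 held 3 CCAAT boxes and an E2F site, CDC27 1 CCAAT box, and ANAPC1 and ANAPC4 none of the motifs. The ANAPC1 window lies wholly in annotated exons, inside the gene as the table bounds it, and so does not cover the bases before that gene's outer start.

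**Figure D2:**
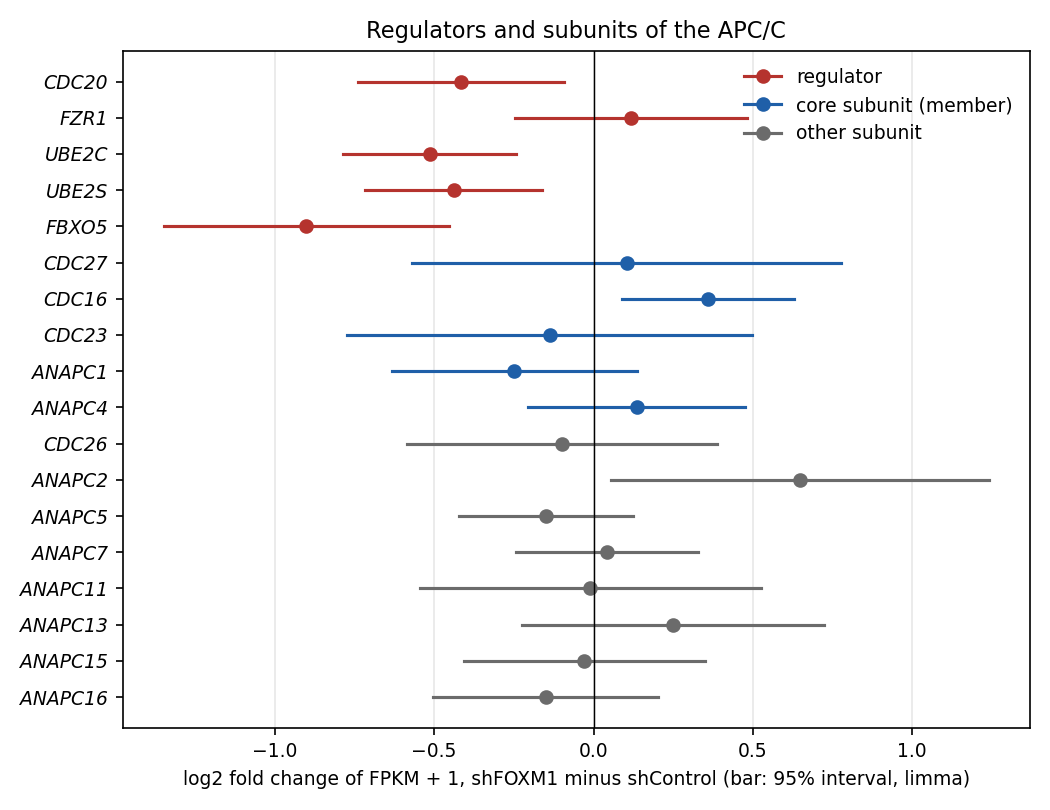
Log2 fold change of FPKM + 1, shFOXM1 minus shControl, with 95% intervals from limma, for the 5 regulators, the 5 core members and 8 other subunits. Intervals of CDC20, UBE2C, UBE2S and FBXO5 lie below 0 and those of CDC16 and ANAPC2 above 0 before adjustment for the number of genes; the other 12 include 0.

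Set beside each other, the 5 regulators had a median of -0.44 in log2 fold change and the 5 core members one of 0.10, where all genes tested had -0.00075. In shFOXM1 1 alone the medians against the control mean were -0.45 and 0.21, and in shFOXM1 2 alone -0.53 and 0.05. The split was proposed with results of these data known, so these medians are a description. The geometric mean of the 5 core subunits was 12.3 and 11.8 FPKM in the controls and 12.9 and 12.0 FPKM after knockdown. This mean varied less between libraries than some single subunits, of which CDC27 differed by 0.73 on the log2 scale between the knockdown libraries.

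Relative to that geometric mean, CDC20 stood at 5.28 and 5.89 in the controls and 4.20 and 3.87 after knockdown. UBE2C stood at 4.86 and 5.28 against 3.41 and 3.42, and UBE2S at 5.64 and 6.48 against 4.12 and 4.49. FBXO5 was above the core mean in both controls, at 1.22 and 1.17, and below it in both knockdown libraries, at 0.656 and 0.513. Whether a ratio lies above or below the core mean rests partly on annotated exon lengths, whereas its change between groups does not. FZR1 stayed near the core mean, at 0.942 and 0.974 in the controls and 0.879 and 1.17 after knockdown. The ratio of CDC20 to FBXO5, the mitotic activator against the interphase inhibitor, was 4.34 and 5.05 in the controls and 6.41 and 7.53 after knockdown. The inhibitor thus stood at a smaller share of its control mean than the activator in both knockdown libraries.

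**Figure D3:**
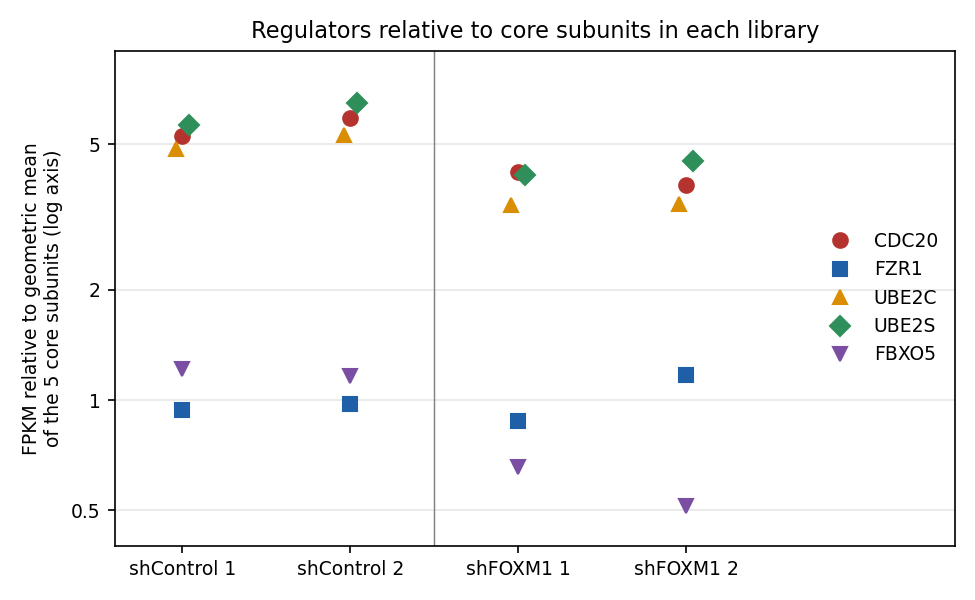
FPKM of each regulator divided by the geometric mean of the 5 core subunits in the same library (log axis), 1 point per regulator and library. CDC20, UBE2C and UBE2S sit between 4.86 and 6.48 in shControl and between 3.41 and 4.49 in shFOXM1, FBXO5 passes from above 1 to below 1, and FZR1 stays between 0.879 and 1.17.

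In the order of levels in shControl, UBE2S (72.9 FPKM), CDC20 (67.2) and UBE2C (61.1) led, followed by CDC27 (19.2), CDC16 (14.5), FBXO5 (14.4), CDC23 (13.0), ANAPC1 (12.4), FZR1 (11.5) and ANAPC4 (5.68). Neighbours whose libraries overlapped were UBE2S with CDC20, CDC16 with FBXO5 and CDC23 with ANAPC1. In shFOXM1 the first 5 places were the same. Places of different genes rest partly on the annotated exon length by which each level is divided. FBXO5 moved from place 6 to place 9, at 7.30 FPKM, where its libraries overlapped those of ANAPC4 (6.35 FPKM). FZR1 moved from place 9 to place 6, at 12.7 FPKM, and overlapped CDC23 (12.1 FPKM).

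The 9 subunits outside the 10 members were mixed in direction as well. ANAPC10 was below the level tested, at 1.02 FPKM or less. Of the 8 tested, 5 were lower and 3 higher by sign, with a median of -0.02 in log2 fold change. Limma called 0, with 0 lower and 1 higher at an unadjusted p under 0.05, against 8.99 and 8.82% of all genes. Both voom fits gave the same counts, without a share over all genes of their own. That 1 was ANAPC2, the cullin subunit of the catalytic core, at 13.1 and 13.2 FPKM in the controls and 16.8 and 26.7 FPKM after knockdown. Its log2 fold change was 0.65 (SE 0.23; limma, adjusted p = 0.255), or 0.96 without shFOXM1 1 (limma, adjusted p = 0.0122) and 0.33 without shFOXM1 2 (limma, adjusted p = 0.0876), so much of its mean came from the second knockdown library. ANAPC5 was at 17.0 and 17.5 FPKM against 15.5 FPKM in both knockdown libraries. ANAPC13 had a log2 fold change of 0.25 and ANAPC16 one of -0.15, both with overlapping groups. Without shFOXM1 1 ANAPC13 was at 0.47 (limma, adjusted p = 0.035), and limma then called 2 of the 8, it and ANAPC2, both higher, where 11.3% of all genes were called higher. Without either shControl library 0 of the 8 were called, and 0 had an unadjusted p under 0.05.

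The mitotic checkpoint complex, which holds CDC20 inactive until chromosomes are attached, had parts with lower levels after knockdown. MAD2L1, the checkpoint protein that binds CDC20, was at 20.8 and 21.0 FPKM in the controls and 14.2 and 10.1 FPKM after knockdown, a log2 fold change of -0.75 (SE 0.18; limma, adjusted p = 0.191). BUB1B, the BUBR1 kinase-like subunit, was at 20.7 and 18.6 FPKM against 15.1 and 13.5 FPKM (log2 fold change -0.43, SE 0.12; limma, adjusted p = 0.214). Both genes had groups that stood apart. The ratio of CDC20 to MAD2L1 was 3.11 and 3.32 in the controls and 3.81 and 4.58 after knockdown, whereas that of CDC20 to BUB1B was 3.14 and 3.74 against 3.58 and 3.42 and overlapped. OTUD7B, a deubiquitinase that opposes the APC/C, was higher, at 2.53 and 2.56 FPKM against 3.61 and 3.42 FPKM. FBXO43, the germ cell relative of FBXO5, was at 1.53 and 1.54 FPKM against 0.787 and 0.980 FPKM. Of the 8 tested genes in this list of 9, 5 were lower and 3 higher by sign, with a median of -0.14 in log2 fold change. Limma called 0 of them. At an unadjusted limma p under 0.05 were 2 lower and 1 higher, against 8.99 and 8.82% of all genes. Voom called 0 with 3 and 1 at that level, and with library weights 0 with 2 and 1. The share of all genes at that level under voom is not given here. Without shFOXM1 1 limma called 2 lower, MAD2L1 (-0.98, adjusted p = 0.0122) and BUB1B (-0.50, adjusted p = 0.0311), and without shFOXM1 2 it called MAD2L1 (-0.52, adjusted p = 0.0479), against 14.5 and 2.95% of all genes called lower. Without shControl 1 or shControl 2 it called 0, MAD2L1 having limma adjusted p of 0.926 and 0.904, and MAD2L1 alone had an unadjusted p under 0.05.

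Transcripts of proteins that the APC/C degrades were lower nearly throughout. All 27 substrates in the list were tested and all 27 were lower by sign, against 50.1% of all genes. Their median was -0.53 in log2 fold change. For 25 the groups stood apart, where 25.9% of all genes lay entirely below the controls. Limma called 0 of the 27, with 20 lower at an unadjusted p under 0.05, against 8.99% of all genes. Voom called 0 with 24 at that level, and voom with library weights called 3, FOXM1, TK1 and UHRF1. For voom the share of all genes at that level is not given here, so the 24 lack a background. Without shFOXM1 1 limma called 25 lower, against 14.5% of all genes, and without shFOXM1 2 it called 9, against 2.95%. Without shControl 1 or shControl 2 it called 0, with 6 and 7 at an unadjusted p under 0.05. CCNB2, a mitotic cyclin, was at 24.9 and 27.0 FPKM in the controls and 15.2 and 14.6 FPKM after knockdown (log2 fold change -0.76, SE 0.11; limma, adjusted p = 0.173). TK1, a thymidine kinase degraded at mitotic exit, was at 94.0 and 89.5 against 42.6 and 44.9 FPKM, and UHRF1, a DNA methylation cofactor, at 61.9 and 59.8 against 28.1 and 28.5 FPKM. FOXM1, itself a substrate of the complex with CDH1, is in this list, and the list shares most of its genes with sets already known to be low in these libraries, so it is no independent evidence.

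**Figure D4:**
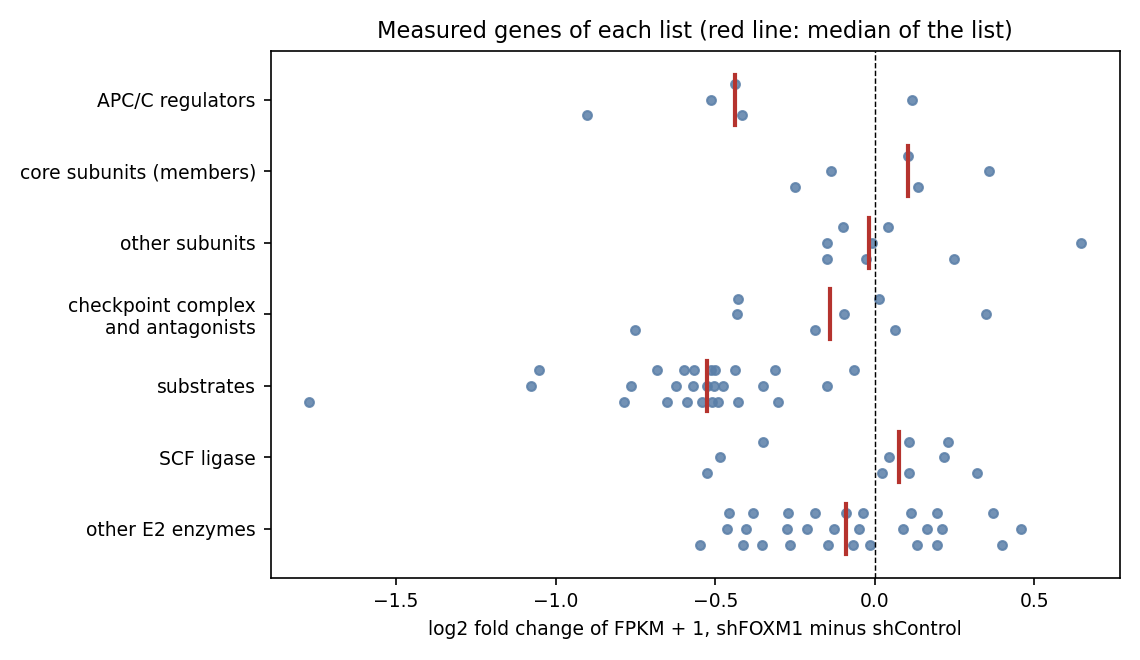
Log2 fold change of FPKM + 1, shFOXM1 minus shControl, of every tested gene in each list, 1 point per gene, with the list's median in red and the median of all genes tested as a dashed line. All 27 substrates lie left of 0, while the subunits of the APC/C and the other E2 enzymes lie on both sides.

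Genes of another ligase and of other conjugating enzymes served for comparison. These lists are not separate from the APC/C in every gene, as SKP2 was also counted among the substrates. Of 10 genes of the SCF ligase, a related cullin ligase of G1 and S phase, 3 were lower and 7 higher by sign, with a median of 0.08. The 3 lower ones were CKS1B, a cofactor (31.8 and 30.9 FPKM against 22.3 and 22.0), SKP2, a substrate receptor (18.5 and 17.5 against 14.8 and 13.0), and CCNF, a cyclin-like receptor (12.8 and 13.4 against 9.84 and 7.88). SKP1, the adaptor, was at 7.81 and 7.54 FPKM against 8.26 and 9.97 FPKM. Among 29 tested E2 enzymes other than UBE2C and UBE2S, 19 were lower and 10 higher by sign, with a median of -0.09 and a range of -0.55 to 0.46. The log2 fold change of UBE2C, -0.51, lay inside that range but near its lower end, and that of UBE2S lay inside it too. The lower end was UBE2D2 (-0.55), which was lower in shFOXM1 2 than in shFOXM1 1. CDC34, the E2 of the SCF ligase, was at 36.0 and 39.2 FPKM in the controls and 49.5 and 54.4 FPKM after knockdown. UBE2Q1 was at 18.7 and 19.2 FPKM against 23.2 and 27.6, UBE2W at 2.48 and 2.76 against 3.60 and 3.76, and UBE2D2 at 43.9 and 47.3 against 38.3 and 24.9. Limma called 0 of either list. At an unadjusted limma p under 0.05 were 3 lower and 0 higher SCF genes and 0 lower and 3 higher E2 enzymes. Over all genes tested, those shares were 8.99% lower and 8.82% higher. Voom called 0 as well, with 3 lower SCF genes and 1 lower and 3 higher E2 enzymes at that level. With library weights it called 0, with 2 lower SCF genes and 2 lower and 3 higher E2 enzymes. Shares of all genes at that level under voom are not given here. Without shFOXM1 1 limma called 3 SCF genes and 7 E2 enzymes lower and 2 E2 enzymes higher, against 14.5% of all genes lower and 11.3% higher. Without shFOXM1 2 it called 1 SCF gene (CKS1B) and 2 E2 enzymes (UBE2G1 and UBE2Q2, named after their values were seen) lower, against 2.95% of all genes. Without either shControl library it called 0 of both lists, with 0 at an unadjusted p under 0.05.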

How the data were processed

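The authors deposited FPKM values of 58735 genes in 4 libraries, beside each gene's length, per the file headers. Libraries came from a SMARTER mRNA kit, per the labels' protocols. GRCm38 and mm10, which are mouse builds, are listed in the submitters' processing notes, although the gene identifiers are human. Gene positions are printed as the table has them, and those of 10 of 10 members equal GENCODE on GRCh38. Aligner, counter and strandedness were not given in the sources used here. Columns named sh0_1 and sh0_2 were taken as shControl 1 and 2, and sh1 and sh2 as shFOXM1 1 and 2. If sh1 and sh2 are different hairpins, the SD of shFOXM1 includes the difference between them. In all, 0 columns were left without a sample.

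Multiplying FPKM by length recovered whole reads for 100% of values (tolerance 0.01 read). The library factor did not follow the read totals alone. In shFOXM1 1 (15017728 reads) 1 read in 1 kb stood for 0.0676 FPKM, and in shFOXM1 2 (14680094 reads) for 0.0656 FPKM. Median-of-ratios factors (a library's median ratio to the gene means) were 1 in every library. The voom fits were scaled by total reads instead. Replicates were not the same library: their chi-square per degree of freedom was 3.93 in shControl and 36.5 in shFOXM1.

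The filter kept genes reaching 1 FPKM in 2 or more libraries. Values as log2(FPKM + 1) went into limma 3.58.1 (R 4.3.3), two-sided, with a trended prior and Benjamini-Hochberg adjustment over all genes. A fold change on this scale understates that of low genes. The smallest two-sided exact permutation p of 2 against 2 is 0.333, so none is given. The members and the gene lists were chosen with earlier results of these data known. Named were FOXM1, all members, and up to 4 genes per list with the smallest unadjusted p. For each regulator the 3 protein-coding genes of at least 5 FPKM with the nearest profile were named too. KIF20A, MFSD12, ITFG2, marker genes and pseudogenes were named after their values were seen. Alternatives were other pseudocounts, filters, scalings, variance models, voom, a replicate block and leaving out each library.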

Additional observations from a re-analysis of the deposited data

How the results depend on the processing

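Over 15 alternatives, 137 of 150 values of the members kept their direction and their side of the threshold, 10 passed it newly and 3 turned direction; all 13 that differed came from leaving out an shFOXM1 library. Limma and voom called 0 genes in all except voom with library weights (9 lower, 22 higher) and the leave-one-out fits, which gave 0 to 1744 lower and 0 to 1360 higher. Without shFOXM1 1, limma called 1744 lower and 1360 higher genes, among them 6 lower and 2 higher members, and without shFOXM1 2 355 and 281, with UBE2C and FBXO5 lower (limma, adjusted p = 0.0479 and 0.0442). There the lone library is assumed to vary as the controls did. With single libraries left out, log2 fold changes ran from -0.53 to -0.30 for CDC20, -0.024 to 0.26 for FZR1, -0.56 to -0.46 for UBE2C, -0.51 to -0.37 for UBE2S, -1.10 to -0.70 for FBXO5, -0.26 to 0.47 for CDC27, 0.36 to 0.36 for CDC16, -0.48 to 0.21 for CDC23, -0.41 to -0.092 for ANAPC1 and 0.05 to 0.23 for ANAPC4. The median of the regulators ran from -0.53 to -0.37 and that of the core members from 0.04 to 0.21. Of the other named genes, FHAD1 (-0.037 to 0.25), TM7SF2 (-0.019 to 0.26) and PEX16 (-0.0081 to 0.27) turned without shFOXM1 2. The cause was not tested. Of the 15 alternatives, median-of-ratios scaling had factors of 1 and so could only repeat the main fit. Its values among the 137 are no check.

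Deviations from the group mean correlated at 0.0421 over genes between libraries of the same number (2 pairs), and the labels do not say that numbers pair cultures. The replicate block called 0 genes lower and 0 higher, left CDC20 at -0.42 (limma, adjusted p = 0.289) and FBXO5 at -0.90 (limma, adjusted p = 0.188), and changed no call of a member. The members rest on at least 359 reads in each library, and the effect of depth on their calls was not tested.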

Other observations

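Among 6718 protein-coding genes with a mean of at least 5 FPKM, the genes with the profile nearest to each regulator over the 4 libraries were taken by the Euclidean distance of centred log2(FPKM + 1) values. With 4 libraries such likeness is a description only. Nearest to FBXO5 was CDK1, the kinase of mitotic entry, at 34.8 and 33.1 FPKM in shControl and 20.2 and 15.6 FPKM in shFOXM1 (distance 0.0449), then IFI16 and PFN2. UBE2C lay nearest to SSBP3 (7.10 and 7.50 FPKM against 5.00 and 4.63, distance 0.00603), then RRP9 and TONSL. CDC20 lay nearest to FADS2, a fatty acid desaturase (16.2 and 17.2 FPKM against 13.4 and 11.1, distance 0.0285), then ATP2A3 and SEMA4D. UBE2S lay nearest to DENND2D (distance 0.0373), DUSP23 and CLN6, and FZR1 to FHAD1 (distance 0.0176), TM7SF2 and PEX16.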
